A study of Mus musculus with 22 samples.

Results

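The Polycomb complex genes described here are 10 genes of the histone-modifying Polycomb repressive complexes: Ezh1, Ezh2, Eed, Suz12, Jarid2, Mtf2, Phf19, Cbx2, Cbx7 and Rnf2. They were taken by name from the array design, which gave 20 of the 41174 probes and 10 of the 27299 genes measured on 22 one-colour arrays. The study followed mouse primordial germ cells (PGCs), the embryonic precursors of eggs and sperm, as they were cultured into pluripotent embryonic germ cells (EGCs). It set beside them an embryonic stem cell (ESC) line and the EBRTcH3 ESC line carrying germ cell genes. Each group was 1 array, so no group was replicated.

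The time course held E11.5 PGCs, uncultured and after 1 day with bFGF, then days 2, 3 and 6 with bFGF, 2i and A83-01, and a day 10 culture whose label names no additive. The 2i mixture is a MEK inhibitor (PD325901, 1 µM) with a GSK inhibitor (CHIR99021, 3 µM), and A83-01 (250 nM) blocks activin and TGF-beta receptors. An EGC line and an ESC line completed this set, and the labels describe all of these cells as SSEA-1 positive, a surface antigen of germ and pluripotent cells. Further day 2 PGC cultures received bFGF with the MEK inhibitor, the GSK inhibitor, A83-01, 4-hydroxytamoxifen (4OHT, 100 nM, given for AKT activation), or 2i, A83-01 and 4OHT together, against bFGF alone. The EBRTcH3 arrays held GFP positive cells with forced Blimp-1, Dnd, Nanos2, Nanos3, Prdm14 or Vasa, cells with GFP alone, and the parental cells, which the labels do not describe as sorted. The labels name no strain, no allele that would respond to 4OHT, and, for the constructs, a promoter (EF1a) and a time (day 2) for Blimp-1 and GFP only.

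Polycomb repressive complex 2 (PRC2) places methyl groups on lysine 27 of histone H3, a mark of silent developmental genes. Its core joins Ezh2 or Ezh1, the methyltransferases, with Eed, which binds the finished mark, and Suz12, the scaffold on which accessory subunits assemble. Jarid2, Mtf2 and Phf19 are accessory subunits that help bring PRC2 to its sites, Mtf2 and Phf19 in place of one another. Polycomb repressive complex 1 (PRC1) places ubiquitin on histone H2A through Rnf2 (Ring1b), and its chromobox proteins Cbx2 and Cbx7 read the PRC2 mark. In ESCs these complexes hold lineage genes silent, and in germ cells the mark is remodelled as PGCs develop.

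Several findings below rest on the single probe that stands for a gene, so the 60-base probes of Ezh2, Eed and Mtf2 are shown as the array design gives them. They lie, on mm9, at chr6:47482047-47482942 on the minus strand, chr7:97113321-97116230 on the minus strand and chr5:108528171-108529856 on the plus strand. Each spans more of the genome than its own length (896, 2910 and 1686 bases), so each crosses an exon junction and reads spliced RNA.
Ezh2 probe: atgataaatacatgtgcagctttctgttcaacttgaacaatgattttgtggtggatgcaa
Eed probe: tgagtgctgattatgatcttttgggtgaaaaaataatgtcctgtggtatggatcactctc
Mtf2 probe: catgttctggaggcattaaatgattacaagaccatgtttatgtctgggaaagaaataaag

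EZH2 is a known target of E2F factors, the regulators of S phase genes, in human cells, and the members' promoters were searched for their motif. Windows of 300 bases, 250 before and 50 after each start site, came from RefSeq (GRCm38.p6) and covered 9 of the 10 members. The letters TTTCCCGC, TTTGGCGC, TTTCGCGC or TTTGCCGC stood on either strand in 3 of these 9 genes (33.3%), against 704 of the 27025 genes with a window (2.6%). The 3 were Ezh2, Suz12 and Phf19, and the stretches below show the motif in capitals. The Ezh2 stretch is at chr6:47595009-47595038 (minus strand, motif beginning at position 4 counted from the start site as 1). The Suz12 stretch is at chr11:79992876-79992905 (plus strand, position -219). The Phf19 stretch is at chr2:34914166-34914195 (minus strand, position -208), where the motif TTTCCCGC lies on the opposite strand and is printed as GCGGGAAA. A match is a description of these letters only.
Ezh2 promoter: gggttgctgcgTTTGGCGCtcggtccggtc
Suz12 promoter: cgacccctcatTTTCCCGCgaattcagttc
Phf19 promoter: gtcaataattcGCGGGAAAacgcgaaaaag

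A level below is the log2 intensity of a gene minus the log2 of its array's 75th percentile, so 0 marks a gene at that percentile. Levels of one gene are compared across arrays, never between genes, since probes differ in brightness. The arrays lay on 10 slides. Their 75th percentiles ran over intensities of 124 to 782, lowest on day 2 with 2i, A83-01 and 4OHT (124), parental EBRTcH3 (196), EBRTcH3 with Blimp-1 (196), uncultured PGCs (207), EBRTcH3 with Nanos2 (228) and day 2 with 4OHT (253). The scanner software called the members well above background on all 22 arrays, apart from Ezh1, which was not on day 2 with 2i, A83-01 and 4OHT. The labelled cell types were checked against marker lists. All 8 PGC markers were well above background on uncultured PGCs, but also on the EGC, ESC and EBRTcH3 arrays. All 8 pluripotency markers were on those arrays, and 7 of 8 on uncultured PGCs. These counts thus do not separate the cell types. The median PGC marker level was 2.03 in uncultured PGCs, 0.76 in the EGC line and 0.46 in the ESC line. It was 0.12 to 1.34 on EBRTcH3 arrays. The median pluripotency marker level was 2.71, 4.99, 4.27 and 2.64 to 5.39 in the same order. On uncultured PGCs, 5 of 8 blood markers and 7 of 8 gonadal somatic markers were also well above background. All cultures from day 1 to day 10 without 4OHT also carried fibroblast markers, whose median level was 0.21 to 2.02 there, against -1.93 in uncultured PGCs. In cell populations of this kind, fewer cells of a type and less RNA per cell cannot be told apart.

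The first comparison followed the members from uncultured PGCs through the culture. Jarid2, Mtf2, Cbx7 and the PRC2 core genes Ezh2 and Suz12 stood higher at day 10 than in uncultured PGCs. Eed, Cbx7, Rnf2 and Mtf2 were lower on days 1 to 3 than at either end. Phf19 ran the other way, with its highest levels on days 1 and 2. No member's slope over the 6 arrays passed the test.

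Among the PRC2 core, the methyltransferase Ezh2 had levels of 1.22 in uncultured PGCs, 1.95 at day 1, 1.89 at day 2, 1.93 at day 3, 2.16 at day 6 and 2.50 at day 10. The level was 2.71 in the EGC line and 2.76 in the ESC line. Ezh2 was thus lowest in PGCs, nearly level on days 1 to 3, and highest in the lines. The scaffold Suz12 had levels of 1.95, 2.16, 2.24, 2.05, 2.80 and 3.07 over the same 6 arrays, and 3.53 in the EGC line and 3.39 in the ESC line. Its first 4 arrays lay close together, and days 6 and 10 lay above them.

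Eed, the subunit that binds the mark, had levels of 2.54 in PGCs, 1.47 at day 1, 1.07 at day 2, 1.16 at day 3, 2.18 at day 6 and 2.70 at day 10. It reached 2.64 in the EGC line and 2.31 in the ESC line, so both ends of the culture were alike and its middle was low. Ezh1, the second methyltransferase, known mainly from non-dividing cells, stayed between -3.28 (PGCs) and -2.70 (day 3). Its range of 0.58 was the narrowest of the 10.

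Of the accessory subunits, Jarid2 varied most. Its levels were -0.40 in PGCs, 1.22 at day 1, 0.76 at day 2, -0.10 at day 3, 1.48 at day 6 and 2.33 at day 10, with 2.62 in the EGC line and 3.00 in the ESC line. There were thus 2 low points, in PGCs and at day 3. Mtf2 had levels of 3.51, 3.33, 3.23, 2.93, 3.95 and 5.16 over the 6 arrays, and 4.91 in the EGC line and 4.65 in the ESC line. Phf19 had levels of 0.01, 1.24, 1.22, 0.76, 0.16 and 0.12, and 0.67 in the EGC line and 0.52 in the ESC line. Phf19 was high where Mtf2 was low, although uncultured PGCs were low in Phf19 as well.

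In PRC1, the reader Cbx7 had levels of 1.36 in PGCs, 0.69 at day 1, 0.52 at day 2, 0.41 at day 3, 2.01 at day 6 and 2.51 at day 10, with 2.78 in the EGC line and 2.81 in the ESC line. Rnf2, the ubiquitin ligase, had levels of 2.56, 1.60, 1.34, 1.11, 2.15 and 2.76, and 2.61 in the EGC line and 2.01 in the ESC line. Both were lowest at day 3. Cbx2, the other chromobox reader, was at 0.02, 0.07, -0.03, -0.57, 0.13 and 0.61, and at 0.34 in the EGC line and 0.39 in the ESC line. Its lowest and highest arrays were also days 3 and 10.

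**Figure D1:**
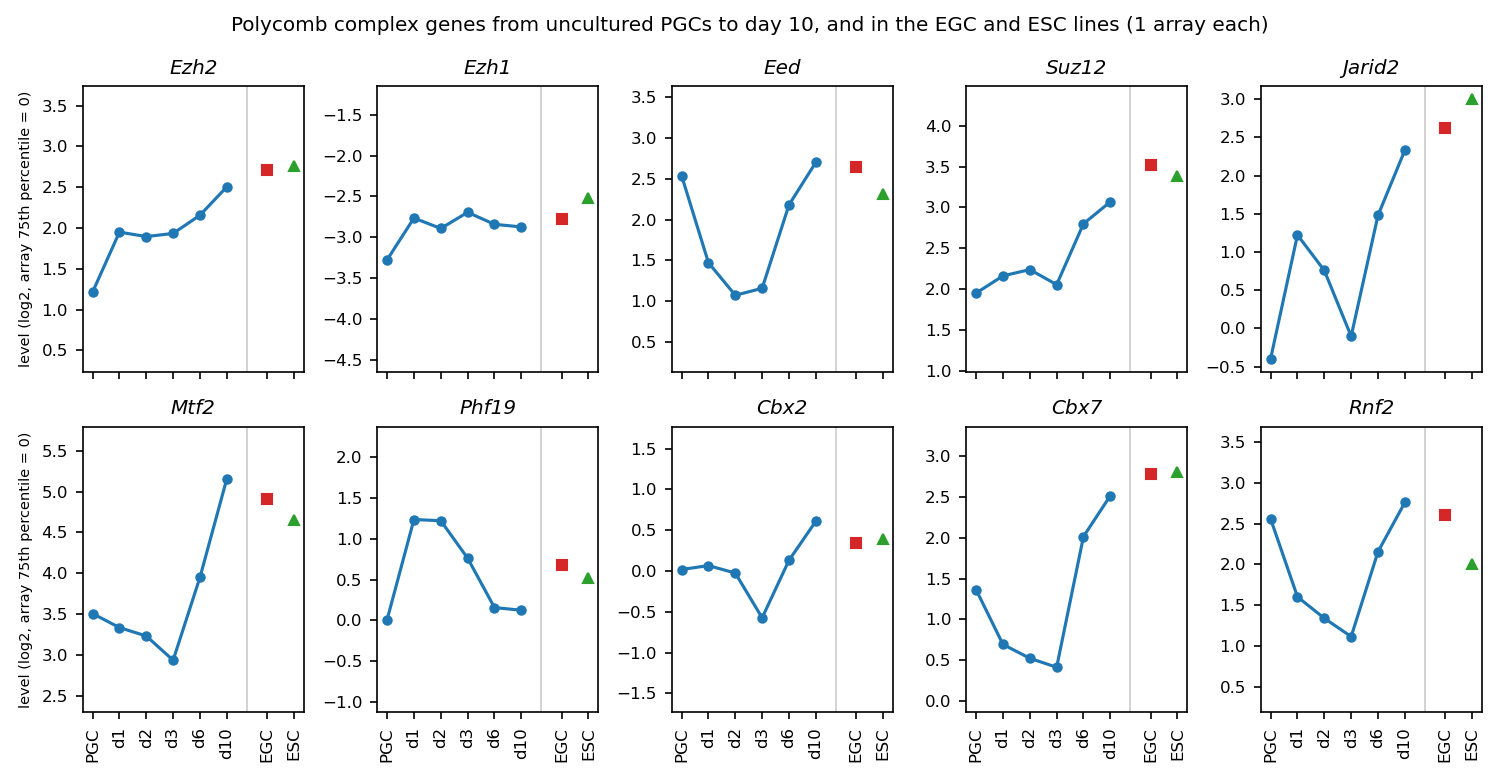
Level of each of the 10 genes (log2, array 75th percentile at 0; panels differ in offset) on uncultured PGCs and days 1, 2, 3, 6 and 10 (circles, joined), the EGC line (square) and the ESC line (triangle), 1 array each. Eed, Cbx7, Rnf2 and Mtf2 dip on days 1 to 3, Phf19 peaks at 1.24 on day 1, and Jarid2 is low in PGCs (-0.40) and at day 3 (-0.10).

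The range over the 6 arrays was 2.73 for Jarid2, 2.22 for Mtf2, 2.10 for Cbx7, 1.64 for Rnf2 and 1.63 for Eed, and 0.58 to 1.29 for the other 5. The median range of the 13129 genes well above background on all 6 was 1.53 and the 90th percentile 3.09. A slope on log2(day + 1) was fitted over the 6 arrays with limma, and 10 of 18593 genes passed a Benjamini-Hochberg adjusted p of 0.05 (0.0538%), with 2304 at an unadjusted p under 0.05. None of the 10 members passed. The slope of Jarid2 was 0.63 (SE 0.24, unadjusted p = 0.0385, adjusted p = 0.386), that of Mtf2 0.42 (adjusted p = 0.506) and that of Ezh2 0.32 (adjusted p = 0.41). Days 1, 2 and 10 shared a slide, days 3 and 6 another, and uncultured PGCs had their own. With slide as a fixed block, which leaves the PGC array no part in the slope, limma called 0 genes (6214 at an unadjusted p under 0.05) and again no member. There 6 members had an unadjusted p under 0.05, among them Mtf2 with a slope of 0.85 (SE 0.165, adjusted p = 0.0787), Phf19 with -0.51 (adjusted p = 0.0937) and Cbx7 with 0.92 (adjusted p = 0.101). The medium also differed between days, and its part was not tested.

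Between neighbouring arrays, a gene is called where its levels differ at least 2-fold, with no test since each side is 1 array. At day 1 with bFGF, against uncultured PGCs, Jarid2 was higher by 1.62 and Phf19 by 1.23 on the log2 scale, and Eed was lower, at a difference of -1.07. These are 3 of 10 members, beside 49.1% of all genes on a pair of arrays whose 75th percentiles were 670 and 207. The blood marker list, with a median level of -6.02 at day 1 and -1.49 in PGCs, and the fibroblast list, at 1.98 and -1.93, moved between the same 2 arrays. Their part in the result was not tested. Rnf2 differed by -0.95, just under 2-fold. The Eed call was lost on the array median scale (-0.86) and under normexp background correction with quantile normalization (-0.68), and the Jarid2 call when its 3 probes were averaged (0.97).

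From day 1 onward the members differed little until day 3. None of the 10 differed at least 2-fold at day 2 with bFGF alone against day 1 (9.12% of all genes), nor at day 2 with bFGF, 2i and A83-01 against day 1 (8.82%), nor at day 3 against day 2 with 2i and A83-01 (9.45%). The widest of these 30 differences was in Jarid2, -0.86 at day 3 against day 2. In the last of the 3 comparisons, 7 of 10 members were lower at day 3.

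Day 6 against day 3 was the step with the most members called. Cbx7 was higher by 1.60, Jarid2 by 1.58, Rnf2 by 1.04, Eed by 1.02 and Mtf2 by 1.02, so 5 of 10 members were at least 2-fold higher and none lower, beside 19.6% of all genes in either direction. The 2 arrays shared a slide and had 75th percentiles of 782 and 687. Suz12 was higher by 0.75 and Cbx2 by 0.71 (both under 2-fold), Ezh2 by 0.22, and Phf19 differed by -0.61. The median of the 10 was 0.88, against 0.06 over all genes. Rnf2, Eed and Mtf2 lay so near 2-fold that scaling to the array median left only Cbx7 and Jarid2 past it. Between the same arrays 7 of 8 pluripotency markers were at least 2-fold higher (median level 3.96 at day 6 and 1.94 at day 3). The 10 fibroblast markers were mixed, with 2 past 2-fold on the higher side, 2 on the lower side, a median difference of -0.80 and a summed level of 6.28 at day 6 and 7.11 at day 3. The part of these markers in the result was not tested.

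At day 10 against day 6, Mtf2 alone was called, higher by 1.21, beside 17.3% of all genes. This call was lost under normexp with quantile normalization, where the difference was 0.97. In the EGC line against day 10, no member was called (12% of all genes), the widest difference being 0.55 in Phf19. The day 1 and day 10 arrays shared a slide, and that pair was added after the data were seen. At day 10, Cbx7 and Mtf2 were each higher by 1.82, Eed by 1.23, Rnf2 by 1.16 and Jarid2 by 1.11, and Phf19 was lower (-1.11). These 6 of 10 members stand beside 33.3% of all genes. Under normexp with quantile normalization Cbx7, Mtf2 and Phf19 were past 2-fold, and Eed, Jarid2 and Rnf2 were not. Day 10 also exceeded day 1 by 2-fold or more in all 8 pluripotency markers (median difference 2.46), and in 2 of 10 fibroblast markers, with 7 of the 10 past 2-fold on the lower side. Their part in the result was not tested.

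The second comparison set uncultured PGCs against 3 pluripotent lines (EGC, ESC and parental EBRTcH3). Against the mean of the lines, Jarid2 differed by -2.48, Cbx7 by -2.08, Mtf2 by -1.51, Ezh2 by -1.30 and Suz12 by -1.28. Rnf2 differed by 0.06. No member passed the test, and no gene did: limma called 0 of 18478 genes (0%), with 1828 at an unadjusted p under 0.05, none of them a member. The adjusted p of Jarid2 was 0.575 and that of Cbx7 0.626. The spread came from the 3 lines, and the lone PGC array is assumed to vary like them.

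The EGC line alone was set against the same PGC array. Jarid2 was higher by 3.01 in the EGC line, Suz12 by 1.58, Ezh2 by 1.50, Cbx7 by 1.41 and Mtf2 by 1.40, beside 41.3% of all genes. The other 5 members were higher by 0.05 to 0.66. Markers moved between the same arrays: all 8 pluripotency markers were at least 2-fold higher in the EGC line (median difference 1.86), and 5 of 6 measured blood markers (median -6.65) and 6 of 8 gonadal somatic markers (median -2.61) were past 2-fold on the lower side. Their part in the result was not tested. For Eed the main probe gave 0.11, whereas the mean over its 3 probes gave -1.45. The design places the other 2 on the opposite strand, so they need not read Eed RNA. The EGC line against the ESC line separated no member by 2-fold (19.0% of all genes). There the widest differences were 0.60 in Rnf2, -0.38 in Jarid2 and 0.33 in Eed, and the other 7 lay between -0.26 and 0.26.

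The third comparison, lines against day 2 cultures, is the one contrast of cell kinds with more than 1 array on each side: 3 lines and 7 day 2 PGC cultures. Cbx7, Mtf2, Suz12 and Jarid2 were called higher in the lines, and no member was called lower. Limma called 3011 of 20024 genes (15%), of which 1457 were higher in the lines (7.28%), and 4 of 10 members, all higher. With slide as a random block, at an estimated correlation of 0.754, it called 711 genes (3.55%) and 1 member, Cbx7. No slide held both a line and a day 2 culture, so slide and kind of cell cannot be told apart in either fit. The fit without a block also counts arrays that share a slide as independent. The 7 cultures differed in what was added and the 3 lines were different lines, so the spread within each group holds those differences. Before adjustment in the fit without a block, 5641 genes had a p under 0.05, with 7 members among them. The median difference of the 10 members was 0.97, against 0.13 over all genes.

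The PRC1 reader Cbx7 had levels of 2.78 in the EGC line, 2.81 in the ESC line and 4.74 in parental EBRTcH3. On the 7 day 2 arrays its lowest, median and highest levels were 0.35, 0.70 and 1.93. All lines lay above all cultures, with a difference of 2.54 (SE 0.50, adjusted p = 0.00736 by limma). The call held under each of 18 alternatives, with an adjusted p of 0.00106 to 0.0454.

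Mtf2 had levels of 4.91, 4.65 and 5.51 in the EGC line, the ESC line and parental EBRTcH3, against a lowest, median and highest of 2.62, 3.23 and 3.87 at day 2. The groups did not overlap, and the difference was 1.73 (SE 0.33, adjusted p = 0.00696). Suz12 had levels of 3.53, 3.39 and 2.78 in the lines, against 1.88, 2.26 and 2.47 as lowest, median and highest at day 2. It did not overlap either, with a difference of 0.99 (SE 0.26, adjusted p = 0.0272). With slide as a random block, the Mtf2 difference was 1.69 (adjusted p = 0.0664) and that of Suz12 1.01 (adjusted p = 0.139), so neither passed. The Suz12 call was lost in 7 of 18 alternatives. Besides the block these were the fits without the EGC line (0.84, adjusted p = 0.106), the ESC line (0.92, 0.0862), day 2 with bFGF (0.98, 0.0572) or day 2 with 2i and A83-01 (0.99, 0.0524), with no filter on dim probes (0.99, 0.0681), and with normexp and quantile normalization (0.76, 0.0727). Over the 18 alternatives the adjusted p ran over 0.000452 to 0.0664 for Mtf2 and 0.00354 to 0.139 for Suz12.

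Jarid2 had levels of 2.62, 3.00 and 0.62 in the EGC line, the ESC line and parental EBRTcH3, against a lowest, median and highest of -0.59, 0.63 and 0.76 at day 2. Parental EBRTcH3 lay inside the range of the cultures, and the other lines lay well above it. The difference was 1.69 (SE 0.50, adjusted p = 0.0456), and over 18 alternatives the adjusted p ran over 0.000599 to 0.202, with 8 under 0.05. Without parental EBRTcH3 it was 2.42 (adjusted p = 0.00438). With slide as a random block the call was lost, at 1.63 (adjusted p = 0.202), as it was with no filter on dim probes (1.69, adjusted p = 0.0745). It was also lost without the EGC line (1.42, adjusted p = 0.169), without the ESC line (1.23, adjusted p = 0.177), and without any 1 of 6 day 2 arrays, the exception being that with 2i, A83-01 and 4OHT.

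Ezh2 also lay higher in all lines, at 2.71, 2.76 and 2.08 against 0.35, 1.86 and 2.06 as lowest, median and highest at day 2, but parental EBRTcH3 and the highest culture nearly touched. Its difference of 0.95 did not pass the test (SE 0.40, adjusted p = 0.146). With Cbx7, Mtf2 and Suz12 it makes 4 of 10 members higher in the lines with no overlap, beside 9.3% of all genes. Eed differed by 1.41 (adjusted p = 0.145), Rnf2 by 0.89 (0.101), Cbx2 by 0.36 (0.446), Ezh1 by 0.24 (0.593) and Phf19 by -0.63 (0.411). Phf19 averaged 0.16 ± 0.75 in the lines (SD, n = 3) and 0.80 ± 0.63 in the cultures (SD, n = 7), and its ranges overlapped.

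**Figure D2:**
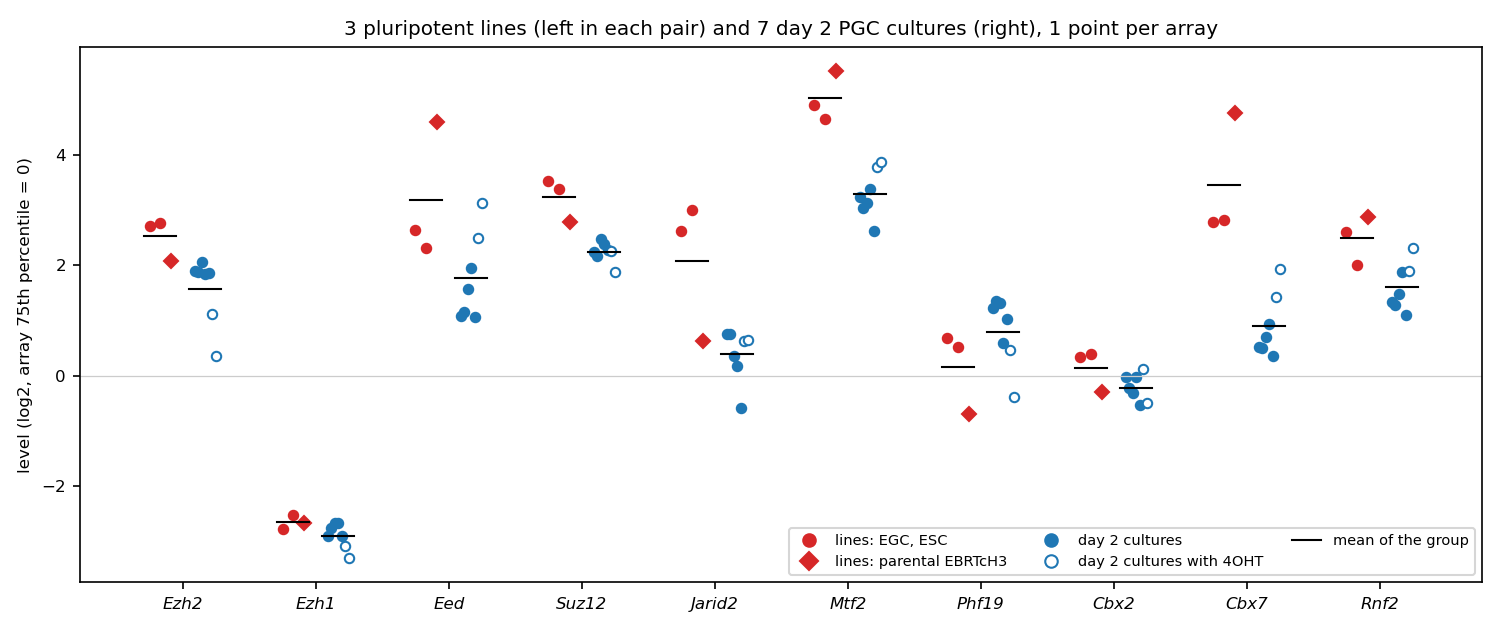
Level (log2, array 75th percentile at 0) of each gene in the 3 lines (red, left; diamond for parental EBRTcH3) and the 7 day 2 PGC cultures (blue, right; open circles with 4OHT), 1 point per array, with a bar at each group's mean. Cbx7, Mtf2, Suz12 and, narrowly, Ezh2 show no overlap, and parental EBRTcH3 is lowest of the lines for Jarid2 (0.62) and highest for Eed and Cbx7.

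The 3 dimmest of these 10 arrays, parental EBRTcH3 and both with 4OHT, often stood apart from their groups. Without them, in an alternative chosen after the data were seen, limma called 6320 of 19655 genes (32.2%) and 7 members: Cbx7 (2.19), Mtf2 (1.70), Suz12 (1.15), Jarid2 (2.52), Ezh2 (0.83), Rnf2 (0.89) and Eed (1.12). Fitted for each probe, 4355 of 30568 probes were called, with 8 of 19 member probes among them, all higher in the lines. These were all 4 Mtf2 probes (1.72 to 2.21), both Suz12 probes (0.99 and 1.07), Cbx7 and the brightest Jarid2 probe. The other 2 Jarid2 probes gave 1.37 (adjusted p = 0.219) and 1.94 (adjusted p = 0.154).

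Cell type markers moved between the same groups. The summed level of the 8 pluripotency markers was 7.35 to 8.90 on the log2 scale in the lines and 4.72 to 6.76 in the cultures, and 6 of 8 were called higher. The summed level of the 10 fibroblast markers was 1.02 to 3.62 in the lines and 2.54 to 8.27 in the cultures, with 5 called lower and 1, Thy1, called higher. Their part in the members' differences was not tested.

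Other genes of the pathway gave a mixed picture between lines and day 2 cultures. Of 6 further PRC2 subunits, Epop, an accessory subunit of the same PRC2 form as Mtf2, rose by 3.16 (adjusted p = 0.00331), and Phf1, a relative of Mtf2 and Phf19, fell by 2.12 (adjusted p = 0.000976). Of 20 further PRC1 subunits, 3 rose and 6 fell, with a median of 0.03. Among them the chromobox gene Cbx8 fell by 2.25 (adjusted p = 0.0102), where Cbx7 rose. Rybp, the subunit of PRC1 forms that lack a chromobox protein, rose by 1.97 (adjusted p = 0.000702).

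Of 6 enzymes that remove Polycomb marks or belong to their complexes, 1 passed, Kdm6a, an H3 lysine 27 demethylase, which rose by 1.04 (adjusted p = 0.0278). Of 13 tested developmental genes known as Polycomb targets in ESCs, Gata6 fell by 4.37 (adjusted p = 0.0243) and Pax3 fell by 3.37 (adjusted p = 0.0212), and the median was 0.23. Pax3 averaged -5.94 in the lines, so the size of its fall is uncertain. The lowest levels called well above background were -5.13 (ESC line), -5.56 (EGC line) and -3.49 (parental EBRTcH3). Of 17 proliferation genes, 2 rose, Plk1 by 1.28 (adjusted p = 0.00448) and Mcm3 by 1.11 (adjusted p = 0.0231), with a median of 0.61. Mcm3 was chosen after its value was seen.

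The fourth comparison set each addition at day 2 against bFGF alone. No member was 2-fold apart with the MEK inhibitor (9.89% of all genes), with the GSK inhibitor (18.5%) or with 2i and A83-01 (3.88%, both arrays on 1 slide). The GSK inhibitor came nearest, with Eed higher by 0.80 and Phf19 lower (-0.77). With A83-01 alone, Jarid2 stood at -0.59, against 0.75 with bFGF alone, a difference of -1.34, beside 13% of all genes. Jarid2 was also lower with the MEK inhibitor (a difference of -0.40) and with the GSK inhibitor (-0.57). The arrays with a single inhibitor shared a slide, and bFGF alone lay on another. In these pairs slide and inhibitor cannot be told apart. Where A83-01 was given with 2i, Jarid2 was at 0.76, and with 2i, A83-01 and 4OHT at 0.65. The additive A83-01 term for Jarid2 over the 7 arrays was accordingly smaller, -0.52 (adjusted p = 1 by limma). Between the arrays with A83-01 alone and bFGF alone, a drop of 2-fold or more was seen in 7 of 8 PGC markers (median difference -1.82), 3 of 8 pluripotency markers (median -0.94) and 7 of 10 fibroblast markers (median -1.44). Their part in the Jarid2 difference was not tested.

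With 4OHT, Eed and Cbx7 stood higher and Ezh2 and Phf19 lower, in both media. Large differences were no more common among members than among all genes, as the shares below show. Eed was at 2.49 with bFGF and 4OHT, against 1.15 with bFGF alone, and at 3.13 with 2i, A83-01 and 4OHT, against 1.07 with 2i and A83-01. Cbx7 was at 1.42 with bFGF and 4OHT, against 0.49 with bFGF alone, and at 1.93 with 2i, A83-01 and 4OHT, against 0.52 with 2i and A83-01. Both 4OHT arrays exceeded the 5 without it for these genes, and also for Mtf2 and Rnf2.

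Ezh2 was at 1.12 with bFGF and 4OHT, against 1.88 with bFGF alone, and at 0.35 with 2i, A83-01 and 4OHT, against 1.89 with 2i and A83-01. Phf19 was at 0.47 with bFGF and 4OHT, against 1.35 with bFGF alone, and at -0.39 with 2i, A83-01 and 4OHT, against 1.22 with 2i and A83-01. Both genes were lower on the 4OHT arrays than on any of the other 5, and so was Ezh1. The share of all genes set apart in this way was not computed. With bFGF, 1 member was past 2-fold (Eed, 1.34), beside 37.7% of all genes. With 2i and A83-01, 4 were (Eed 2.06, Cbx7 1.40, Phf19 -1.61 and Ezh2 -1.55), beside 51.5%. In both media the share of members past 2-fold was lower than that of all genes.

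**Figure D3:**
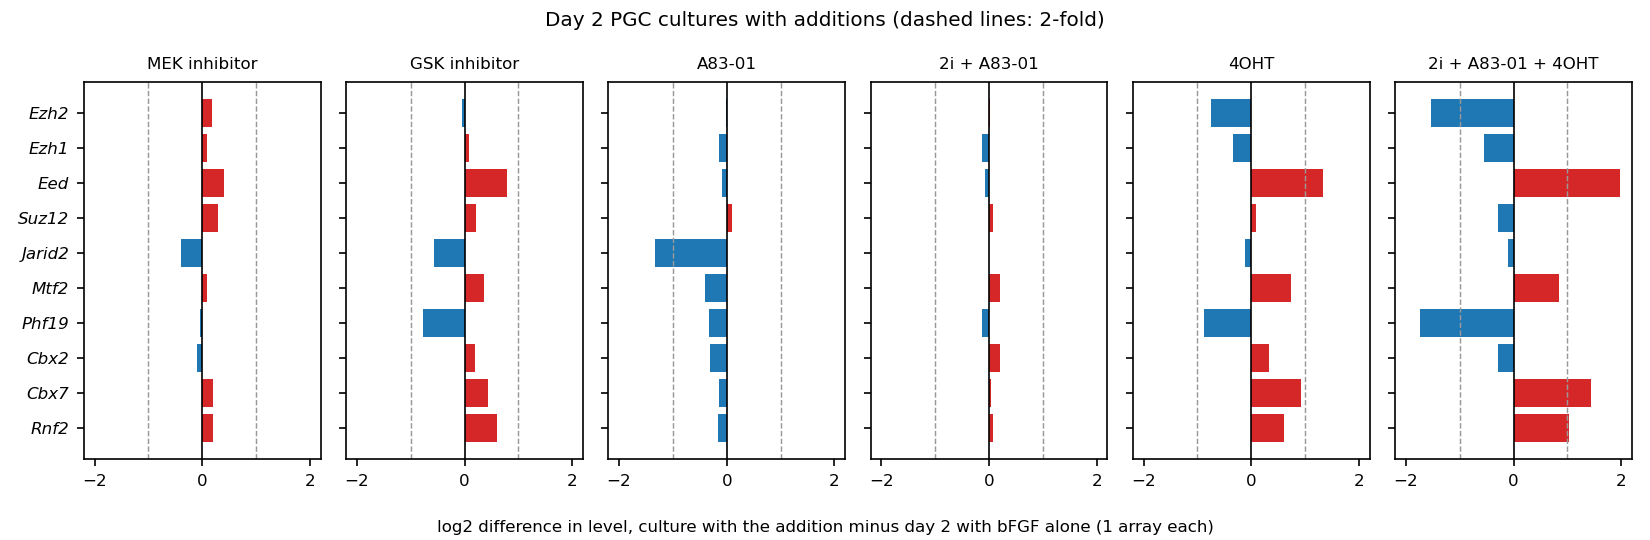
Log2 difference in level between each day 2 culture with an addition and day 2 with bFGF alone, 1 array each, red for higher and blue for lower, with dashed lines at 2-fold. Jarid2 passes 2-fold with A83-01 alone (-1.34), and Eed, Cbx7, Ezh2 and Phf19 differ most on the 2 arrays with 4OHT.

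No member passed the test for any addition. Of 18633 genes, limma called 0 for the MEK inhibitor (0%, 600 at an unadjusted p under 0.05), 0 for the GSK inhibitor (0%, 862), 0 for A83-01 (0%, 689) and 0 for 4OHT (0%, 8692). The 4OHT term was 1.43 for Eed (SE 0.35, adjusted p = 0.0571), -1.13 for Ezh2 (SE 0.29, adjusted p = 0.0615), 1.05 for Cbx7 (SE 0.28, adjusted p = 0.0631), -1.02 for Phf19 (SE 0.33, adjusted p = 0.0835) and 0.73 for Mtf2 (SE 0.25, adjusted p = 0.091). Over 12 alternatives the adjusted p ran over 0.000837 to 0.516 for Eed and 0.0229 to 0.519 for Ezh2. Both lowest values came from the fit without the GSK inhibitor array, which called 9646 of 18471 genes, against 0 with all arrays. Normexp with quantile normalization called 4 members, Eed, Ezh2, Cbx7 and Phf19, beside 26.6% of all genes.

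The median 4OHT term over all genes was 0.58, so scaling to the array median lowers every member's term. Eed was then at 0.99, Cbx7 at 0.61, Ezh2 at -1.57 and Phf19 at -1.46, while Jarid2 (0.33 in the first scaling) was at -0.11 and Cbx2 (0.05) at -0.39. Between the single arrays with bFGF, that scale left Eed at 0.99 and put Ezh2 (-1.11) and Phf19 (-1.24) past 2-fold. With 2i and A83-01 it left Cbx7 at 0.81 and put Cbx2 (-1.06) past 2-fold. The 2 arrays with 4OHT were alone on their slide, so slide and 4OHT cannot be told apart. They were also the dimmest day 2 arrays, with 75th percentiles of 253 and 124, against 476 to 708 on the other 5. The fibroblast markers had medians of -1.48 and -3.22 on them, against 0.21 to 1.50, and 8 and 4 of the 10 were well above background. The part of brightness and of fibroblast RNA in these differences was not tested.

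Other dim arrays give values to set beside these. Uncultured PGCs, on an array with a 75th percentile of 207, had Eed at 2.54, Cbx7 at 1.36, Ezh2 at 1.22 and Phf19 at 0.01, each on the side of the 4OHT arrays. Day 10, at 374, had Eed at 2.70 and Phf19 at 0.12 but Ezh2 at 2.50. The array with the GSK inhibitor was the dimmest of the 5 without 4OHT, at 476, and of those 5 it was highest for Eed (1.95) and Cbx7 (0.93) and lowest for Ezh2 (1.83) and Phf19 (0.58). Among the 8 EBRTcH3 arrays the dim ones were not alike. With Blimp-1, at 196, Phf19 was the highest of the 8 (0.74) and Eed the lowest (3.01), with Cbx7 at 3.47 and Ezh2 at 1.94. Parental cells, also at 196, had the highest Eed (4.59) and Cbx7 (4.74) of the 8, with Ezh2 at 2.08 and Phf19 at -0.70. The part of brightness in these values was not tested.

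**Figure D4:**
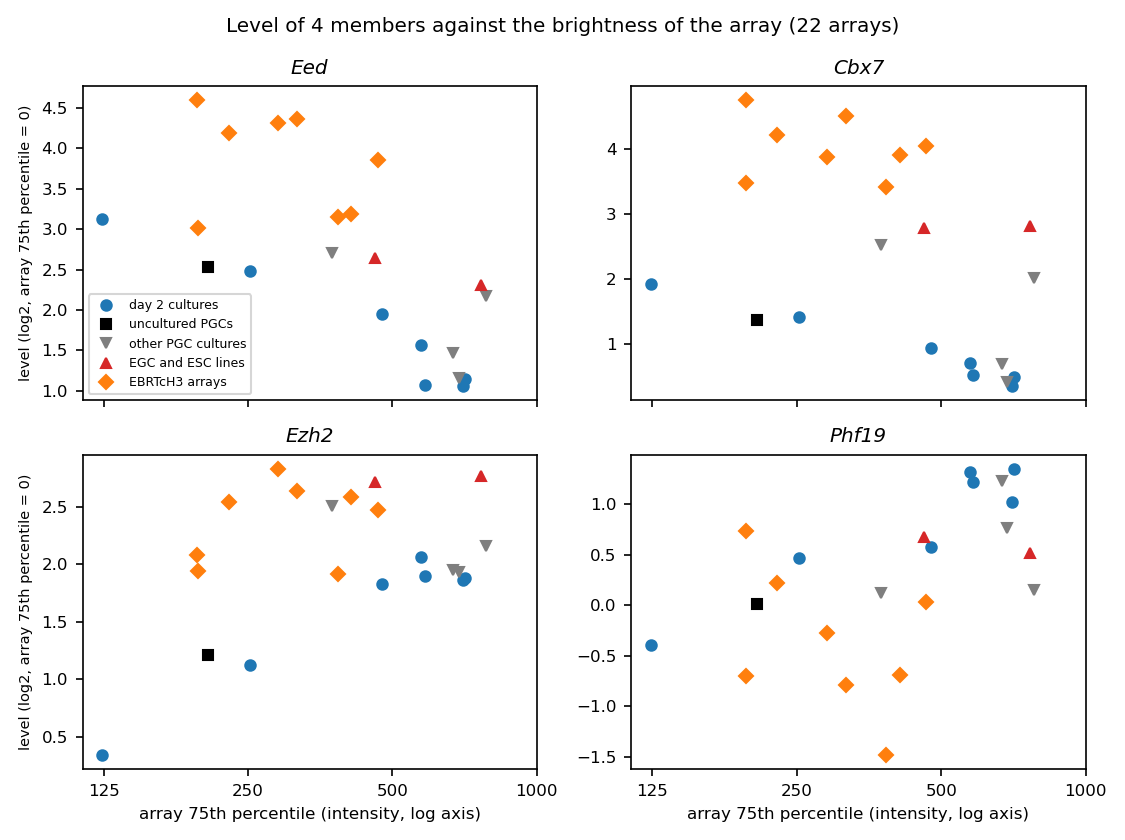
Level (log2, array 75th percentile at 0) of Eed, Cbx7, Ezh2 and Phf19 against the array's 75th percentile (intensity, log axis) on all 22 arrays, by kind of cell. Among day 2 cultures (blue) the 2 dim 4OHT arrays, at 124 and 253, carry the highest Eed and Cbx7 and the lowest Ezh2 and Phf19.

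The fifth comparison concerned forced germ cell genes in EBRTcH3 cells. No member was called for any construct. With slide as a block, limma called 2 of 18780 genes for Dnd (0.0106%, 421 at an unadjusted p under 0.05) and 0 for Prdm14 (0%, 1178), Vasa (0%, 517), Nanos2 (0%, 544), Nanos3 (0%, 1735) and Blimp-1 (0%, 895). The widest member difference was in Phf19 with Nanos3, against the other 2 arrays of its slide. There Phf19 differed by -1.46 (adjusted p = 0.589), Mtf2 by -1.21 (adjusted p = 0.418) and Eed by -1.10 (adjusted p = 0.51).

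Mtf2 was at 4.04 with Nanos3, and at 5.08 to 5.69 on the other 7 EBRTcH3 arrays. Phf19 was at -1.48 with Nanos3, the lowest of the 22 arrays, and at -0.79 to 0.74 on the other 7. The Nanos3 array also had the lowest median of pluripotency markers among the EBRTcH3 arrays, 2.64, against 4.36 to 5.39 on the other 7. The part of this in the members' values was not tested.

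Set against single arrays of the same slide, Jarid2 was at 2.76 with Prdm14 and at 2.04 with Vasa, against 0.62 in parental cells. These differences of 2.14 and 1.42 were the only members past 2-fold, beside 29.1% of all genes for Prdm14 and 17.8% for Vasa. The parental array was the dimmest of the slide (196, against 466 with Prdm14 and 316 with Vasa). Averaged over its 3 probes, Jarid2 differed by 0.97 for Vasa. With Blimp-1, Phf19 was at 0.74, against -0.69 with GFP, higher by 1.43, beside 15.7% of all genes. The other 9 members differed by -0.64 to 0.25. On the array median scale the Phf19 difference was 0.998, just under 2-fold, and that of Ezh2 was -1.07.

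Across lines, EBRTcH3 cells were set against the EGC and ESC lines, and 2 of 10 members separated them, a share near that of all genes. Eed ran over 3.01 to 4.59 on the 8 EBRTcH3 arrays (median 4.02), against 2.64 in the EGC line and 2.31 in the ESC line. Cbx7 ran over 3.42 to 4.74 (median 3.98), against 2.78 in the EGC line and 2.81 in the ESC line. These 2 of 10 members were higher with no overlap, beside 16.7% of all genes, and none was lower with no overlap. No slide held both EBRTcH3 cells and the EGC or ESC line, and no test was made.

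**Figure D5:**
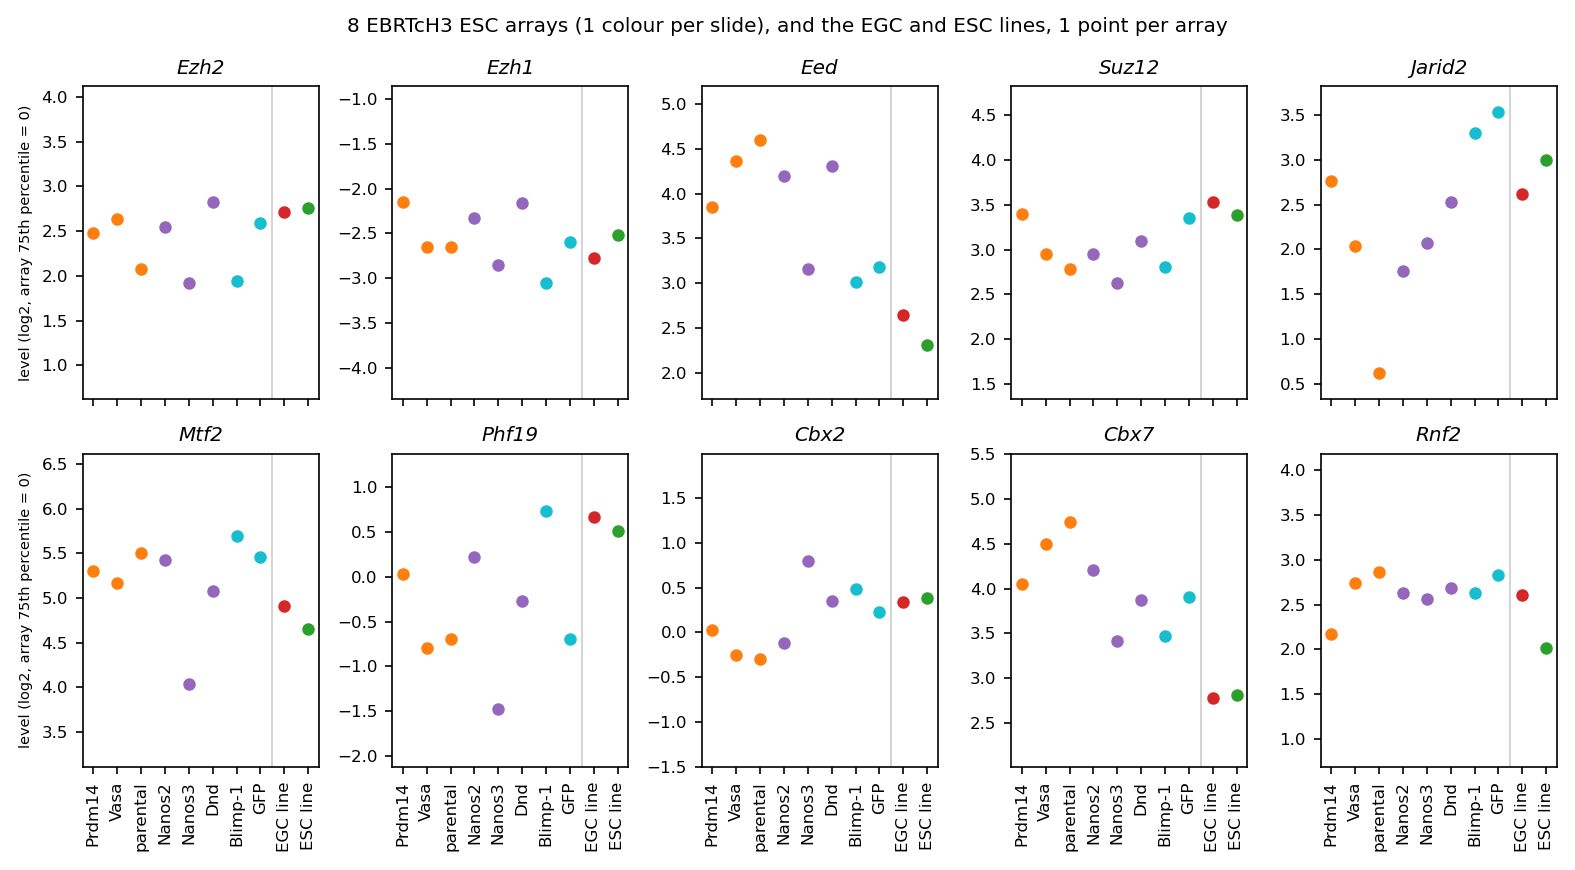
Level (log2, array 75th percentile at 0; panels differ in offset) of each gene on the 8 EBRTcH3 arrays, coloured by slide, and in the EGC (red) and ESC (green) lines, 1 array each. Eed and Cbx7 are higher on all 8 EBRTcH3 arrays than in both lines, Jarid2 is lowest in parental cells (0.62), and Mtf2 and Phf19 are lowest with Nanos3.

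Probes of a gene were compared where there were several. Ezh1, Ezh2, Phf19 and Cbx7 have 1 probe each, and the other 6 members have 2 to 4. Of the 3 Eed probes, the brightest, printed above, reads the minus strand. The other 2 are given by the design at chr7:97129435-97129494 and chr7:97130967-97131026 on the plus strand of mm9, opposite to it, so they need not read Eed RNA. The first of these was well above background on all 22 arrays, with a level of -1.08 in uncultured PGCs, -3.53 at day 1, -4.86 at day 6 and -0.18 in parental EBRTcH3, and the second on none. In uncultured PGCs against day 1 it and the brightest probe were both higher in PGCs. It was lower at day 6 than at day 3 (-4.35), where the brightest Eed probe was higher. The second Cbx2 probe was well above background on 7 arrays and the third Jarid2 probe on 10.

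Likeness in level was described over the 13 arrays of PGC origin, among 11915 genes well above background on all of them, 9 of the members included. These arrays share slides and brightness, and r without the 2 arrays with 4OHT (11 arrays) is given in parentheses. Nearest to Cbx7 were Herc4 with an r of 0.99 (0.99), Nodal and Cacybp. Nearest to Mtf2 were Dusp9 with 0.98 (0.98), Zfp930 and Fam25c, and nearest to Jarid2 were Mtcl1 with 0.96 (0.97), Rfx7 and Chd7. In the PRC2 core, Ezh2 was nearest to Wwp2 with 0.99 (0.98), Uba1 and Thoc5, Suz12 to Snrnp70 with 0.97 (0.98), Gabpa and Chtf18, and Eed to Ppp1r15b with 0.99 (0.99), Riok2 and Trip13. Rnf2 was nearest to Pbdc1 with 0.99 (0.99), Arl6ip1 and Dus3l, Cbx2 to Dcp1a with 0.96 (0.98), Dis3 and Zfp687, and Phf19 to Abca7 with 0.94 (0.91), Ift140 and Atp13a2.

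Among the members themselves, Mtf2 and Cbx7 had an r of 0.95 over the 13 arrays (0.96 over 11). Eed and Rnf2 had 0.92 (0.99), and Cbx7 and Rnf2 had 0.92 (0.91). Phf19 opposed Eed, with an r of -0.86 (-0.80). Within the PRC2 core, Ezh2 and Suz12 had 0.77 (0.90). Ezh2 and Eed had -0.31 over the 13 arrays and 0.32 over 11, so the sign rests on the 2 arrays with 4OHT.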

How the data were processed

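RNA of 22 mouse cell samples was labelled with Cy3 and hybridised to 1-colour Agilent arrays. Per the file headers, the authors deposited spot intensities after background subtraction and spatial detrending, with no normalization across arrays. The authors used Agilent Feature Extraction 10.7.3.1, per the submitters' processing notes, and the design is annotated on mm9. The series' deposited value table also holds intensities and served only as an alternative.

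Outlier spots and control spots were left out and repeat spots averaged. Each log2 intensity was scaled to its array's 75th percentile. Probe names came from RefSeq through the accession (27027), symbol (5011), synonym (796) or the annotation of another array file (1153), and 7187 kept their design name. Each gene was represented by its brightest probe on average. A fit tested genes that the scanner software called well above background on 1 or more of its arrays. In comparisons between single arrays, where 1 side was not above background, it was set to the lowest level called so on its array. The fits used the levels without this floor.

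Groups came from the labels and held 1 array each. Fits used limma 3.58.1 in R 4.3.3 (lmFit and eBayes, two-sided, Benjamini-Hochberg adjusted p under 0.05): a slope over 6 arrays, PGCs against 3 lines, 3 lines against 7 day 2 cultures, 4 additive terms over the 7 day 2 arrays (2 residual degrees of freedom), and each construct against its slide over 8 arrays. Lone arrays were taken to vary as the rest of a fit does, so p-values measure only the spread between these arrays, and their number and signal over background limit the precision. The fits were run on simulated data with known differences and independent noise on each array. No slide or brightness effect was simulated, so that run cannot show how the fits handle them. Alternatives changed the background correction, source table, scaling, filter, probe rule, slide term and arrays.

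The members and all lists were chosen with earlier results of these data known. All 10 members were measured in each comparison. For the slope, PGCs against lines, the day 2 terms and the construct fits, values of only some members are given. Of other lists, up to 3 genes are named with the largest difference among those at least 2-fold apart, passed over where they missed the threshold; a gene that this rule would name is not reported here. For likeness, the 3 genes nearest to each member by Pearson's r are named.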

Additional observations from a re-analysis of the deposited data

How the results depend on the processing

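Of the 2220 values of single members recomputed under alternatives, 2013 kept their direction and their side of the threshold, 137 changed sign without passing it in either setting, 38 no longer passed it, and 32 passed it only there (1 of them with a changed sign). Of those called, 0 were reversed. The signs in lines against day 2 cultures held for all 10 members under all 18 alternatives. The alternatives without 3 dim arrays and with every probe, and the pair of days 10 and 1, were chosen after seeing the data. The cause of the changes below was not tested. No paired analysis was possible because each group has 1 array and the labels give no replicate numbers.

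Lines against day 2 cultures called 4593 genes with EBRTcH3 GFP in place of the parental array, 711 with slide as a random block and 6320 without the 3 dim arrays. Members called were 2 with no filter on dim probes, 1 with slide as a random block and 7 without the 3 dim arrays. Leaving out 1 array gave 1917 to 4348 genes and 2 to 5 members.

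For 4OHT, the genes and members called were 4136 and 1 with the mean over probes, 15255 and 3 with no filter, and 4965 and 4 with normexp and quantile normalization. The member called with the mean over probes was Eed, whose mean takes in 2 probes of opposite orientation. Leaving out 1 array gave 0 to 9646 genes and 0 to 4 members. With slide in place of 4OHT, 622 genes were called for A83-01, 650 for the GSK inhibitor and 724 for the MEK inhibitor. Leaving out 1 array gave 0 to 1613, 0 to 1582 and 0 to 2060 genes for these, and 0 members.

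The slope called 0 genes with the authors' table, linear days, the mean over probes, median scaling, slide as a fixed block or 1 array left out (0 to 0), 37 with no filter and 1 with normexp. PGCs against lines called 761 genes with GFP, 81 with no filter, 17 with normexp and 0 to 579 with 1 line left out. In none of these was a member called.

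Without a slide block, the constructs called 151 genes (Blimp-1), 64 (Dnd), 27 (Nanos2), 53 (Nanos3) and 3 (Prdm14). With normexp they called 1 (Blimp-1), 44 (Dnd), 10 (Nanos2) and 5 (Nanos3), and with median scaling 42 (Dnd) and 33 (Nanos2).

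Between single arrays, members at least 2-fold apart numbered 0 for Vasa with the mean over probes, 3 at day 10 against day 1 and 0 at day 10 against day 6 with normexp, and 2 for 4OHT with median scaling. At day 6 against day 3 they numbered 3 with the mean over probes, 2 with median scaling and 3 with normexp. For Eed the mean over probes takes in 2 of opposite orientation. The authors' table changed no count of members. Signal over background limits the dim arrays, where 44.3 to 53.8% of probes were well above background on the 4OHT, parental, Blimp-1 and PGC arrays, against up to 64.7% on the EGC line.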
